A study of Mus musculus with 18 samples.

Results

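The genes described here are Flt1, Anpep, Cystm1, Tgm2, Dhrs9, Apobec2, AA467197 and Anxa8, 8 of the 24411 gene symbols in the expression table, all higher under M2 conditions in Kdm7a-knockout than in control macrophages. They were chosen by their M2 level and for induction under M2, which is why the knockout-to-control difference under M2, and every M2 value of these genes, is given as a description and not as a test. RAW264.7, a transformed mouse macrophage-like line, was used throughout. The knockout line (KO) was made with CRISPR/Cas9 and a guide RNA against Kdm7a, and its control line, labelled WT or mock, had a control guide RNA. The sources used here name 1 knockout line and do not say whether it is a clone or a pool. Both lines went through M2 conditions (20 ng/ml of mouse IL-4, of IL-10 and of IL-13, together with 2 ng/ml of human TGF-beta 1), M1 conditions (mouse IFN-gamma at 2 ng/ml with LPS at 0.1 µg/ml) or no stimulation (M0), each for 48 h. The 6 groups were thus KO M2, control M2, KO M1, control M1, KO M0 and control M0, with 3 libraries each, and every SD below has n = 3. The labels do not say whether libraries came from separate cultures, so p-values rest on library-to-library spread alone, and that spread may be technical. Line differences that are unrelated to Kdm7a cannot be told apart from the knockout.

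IL-4 and IL-13 signal through STAT6, IL-10 through STAT3 and TGF-beta through SMAD proteins, and together they drive the state called M2 or alternative activation, which is known for arginase, lectin receptors and scavenger receptors. KDM7A is a Jumonji-family demethylase of histone H3 that removes methyl groups linked to gene repression. The 8 genes encode different kinds of protein. Flt1 (VEGFR1) is a receptor for VEGF-A, VEGF-B and PlGF that monocytes and macrophages carry, and Anpep (CD13, aminopeptidase N) is a zinc peptidase of the myeloid cell surface. Tgm2 is the tissue transglutaminase, which crosslinks proteins and is a marker of alternatively activated macrophages in mouse and human. Dhrs9 is a dehydrogenase that acts on retinoids and steroids, and in human it marks regulatory macrophages. Anxa8 is an annexin, a calcium-dependent binder of membrane phospholipids. Apobec2 belongs to the APOBEC family of cytidine deaminases and is best known from muscle, AA467197 (the mouse gene for NMES1) encodes a small mitochondrial protein related to Ndufa4, and Cystm1 encodes a small membrane protein with a cysteine-rich end.

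Promoter windows of RefSeq (build GRCm38.p6), which run from 250 bases before to 50 after a gene's start, were found for 6 of the 8 genes. Those of Tgm2 and Cystm1 were not among them. The 250 bases before the start are shown for 3 genes whose levels ran most closely together over the libraries (Flt1, Anpep and Anxa8) and for Dhrs9, whose knockout difference turned round between conditions. Each is written 5′ to 3′ on the gene's own strand, at chr5:147726012-147726261 (minus strand) for Flt1, chr7:79848211-79848460 (minus) for Anpep, chr14:34085729-34085978 (plus) for Anxa8 and chr2:69380212-69380461 (plus) for Dhrs9. The Flt1 window lies inside the annotated span of that gene, which ends at 147726438. Its positions are thus counted from a start within that span, whereas the windows of Anpep, Anxa8 and Dhrs9 lie directly before the annotated gene. Capitals mark letters that match one of the motifs searched on both strands: a palindromic STAT6 type (TTCNNNNGAA), a SMAD box (CAGAC, which on the other strand reads GTCTG), the AP-1 motif (TGANTCA), the CRE motif (TGACGTCA) and the TATA box (TATAAA, which on the other strand reads TTTATA).
Flt1: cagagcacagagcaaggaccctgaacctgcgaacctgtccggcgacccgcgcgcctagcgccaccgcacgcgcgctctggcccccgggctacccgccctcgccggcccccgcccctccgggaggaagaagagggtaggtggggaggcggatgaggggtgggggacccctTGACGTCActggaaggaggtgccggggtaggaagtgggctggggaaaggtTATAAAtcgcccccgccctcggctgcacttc
Anpep: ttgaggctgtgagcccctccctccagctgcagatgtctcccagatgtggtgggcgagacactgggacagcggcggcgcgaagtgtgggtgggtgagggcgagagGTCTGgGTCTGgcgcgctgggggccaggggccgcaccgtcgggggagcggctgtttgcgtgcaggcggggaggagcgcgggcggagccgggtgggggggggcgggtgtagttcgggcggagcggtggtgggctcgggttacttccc
Anxa8: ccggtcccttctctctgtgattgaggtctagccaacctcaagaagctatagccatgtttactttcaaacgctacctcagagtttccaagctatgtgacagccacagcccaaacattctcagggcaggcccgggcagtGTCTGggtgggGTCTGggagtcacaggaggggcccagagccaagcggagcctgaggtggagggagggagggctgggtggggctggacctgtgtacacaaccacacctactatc
Dhrs9: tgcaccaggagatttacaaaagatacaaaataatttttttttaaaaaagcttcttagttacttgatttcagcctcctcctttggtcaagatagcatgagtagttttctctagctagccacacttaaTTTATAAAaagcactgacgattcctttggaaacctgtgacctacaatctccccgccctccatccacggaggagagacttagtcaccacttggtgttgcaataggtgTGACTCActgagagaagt
In Flt1 the capitals are a CRE match starting 81 bases and a TATA match starting 31 bases before the start used for its window. The Anpep window held SMAD-box matches at 146 and 140 bases before the start, and that of Anxa8 at 113 and 102. Dhrs9 had an AP-1 match 18 bases before the start and overlapping TATA matches at 124 and 122. AA467197, not printed, had an AP-1 match 73 bases before its start, and Apobec2 a TATA match at 34.

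Over the whole 300-base windows, 5 of the 6 genes (all but Flt1) held a SMAD box, which 49.6% of all 32851 mouse windows also hold. The AP-1 letters were in 2 of 6, against 7.81% of all windows, the CRE letters in 1 of 6, against 1.79%, and the TATA letters in 3 of 6, against 13.6%. The STAT6 type was in none of the 6 windows, and 6.95% of all windows hold it. These are letter matches only. Base composition split the genes: Flt1, Anpep and AA467197 had a GC content of 70.7%, 72.3% and 62.7% with 29, 28 and 29 CG pairs, whereas Anxa8, Apobec2 and Dhrs9 had 57.3%, 55.7% and 43.7% with 5 CG pairs each, at a median GC content of 52.7% over all windows.

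The deposited values are TPM, transcript shares of a fixed total that keep no sequencing depth, so depth is unknown. Kdm7a itself had 5.83, 7.54 and 7.04 TPM in KO M2 libraries against 24.5, 23.3 and 22.2 TPM in control M2 libraries, and KO cells kept 29.2%, 25.3% and 30.3% of the control transcript under M2, M1 and M0. Libraries of the same group correlated across genes at 0.994 to 0.997, and no pair of libraries held identical values. All 9 macrophage markers were measured, summing to 3920 to 4140 TPM in KO M2 libraries and 4800 to 4960 TPM in control M2 libraries. In that comparison Lyz2 (lysozyme), Fcgr3 and Adgre1 were lower and Csf1r higher (limma adjusted p = 8.53e-13, 0.00101, 8.70e-04 and 0.0100). Markers of the other cell types in which some of these genes are best known were low: 8 endothelial genes summed to 4.56 to 5.93 TPM in KO M2 and 4.59 to 6.11 TPM in control M2 libraries, with Kdr, which encodes the main endothelial VEGF receptor, at a mean of 0.00667 TPM in KO M2 and at 0 in control M2 libraries. Among them Pecam1 was higher in KO M2 cells by 1.06 log2 units and Egfl7 lower by 0.64 (limma adjusted p = 2.70e-08 and 0.0029). For 5 muscle genes the sums were 1.93 to 2.32 TPM in KO M2 and 2.18 to 3.97 TPM in control M2 libraries, and for 8 epithelial genes 1.26 to 2.01 TPM in KO M2 and 1.39 to 1.74 TPM in control M2 libraries, with Epcam, Krt5, Krt14 and Krt19 at 0 throughout. Sums of 6 fibroblast genes did not exceed 0.11 TPM in KO M2 and 0.04 TPM in control M2 libraries. Those of 5 dendritic cell genes were 3.72 to 4.14 TPM in KO M2 and 6.75 to 7.36 TPM in control M2 libraries, of 5 lymphocyte genes 19.8 to 21.2 TPM in KO M2 and 13.1 to 14.9 TPM in control M2 libraries (mostly Cd79a), and of 4 granulocyte genes 0.61 to 1.68 TPM in KO M2 and 1.36 to 2.33 TPM in control M2 libraries. Outside M2, dendritic sums were 5.11 to 6.14 TPM in KO M1 and 4.83 to 5.42 TPM in control M1 libraries, and 30.9 to 31.9 TPM in KO M0 and 10.2 to 11.8 TPM in control M0 libraries (there mostly Siglech). Granulocyte sums, nearly all S100a8, were 10.0 to 12.6 TPM in KO M1 and 52.9 to 62.0 TPM in control M1 libraries, and endothelial sums, nearly all Pecam1, 25.7 to 29.3 TPM in KO M1 and 21.3 to 22.9 TPM in control M1 libraries. Macrophage marker sums were 4000 to 4090 TPM in KO M1 and 4820 to 4910 TPM in control M1 libraries, and 4780 to 4880 TPM in KO M0 and 5810 to 5980 TPM in control M0 libraries. The part of these marker differences in the results was not tested. Among 16 markers of the M1 response, 1 was called higher (Socs3) and 3 lower (Cxcl10, Cxcl2 and Tnf) in KO than in control M2 cells. Over all tested genes 12.7% were called higher and 18.3% lower in that comparison. In bulk RNA, fewer cells of a type and less RNA per cell cannot be told apart.

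**Figure D1:**
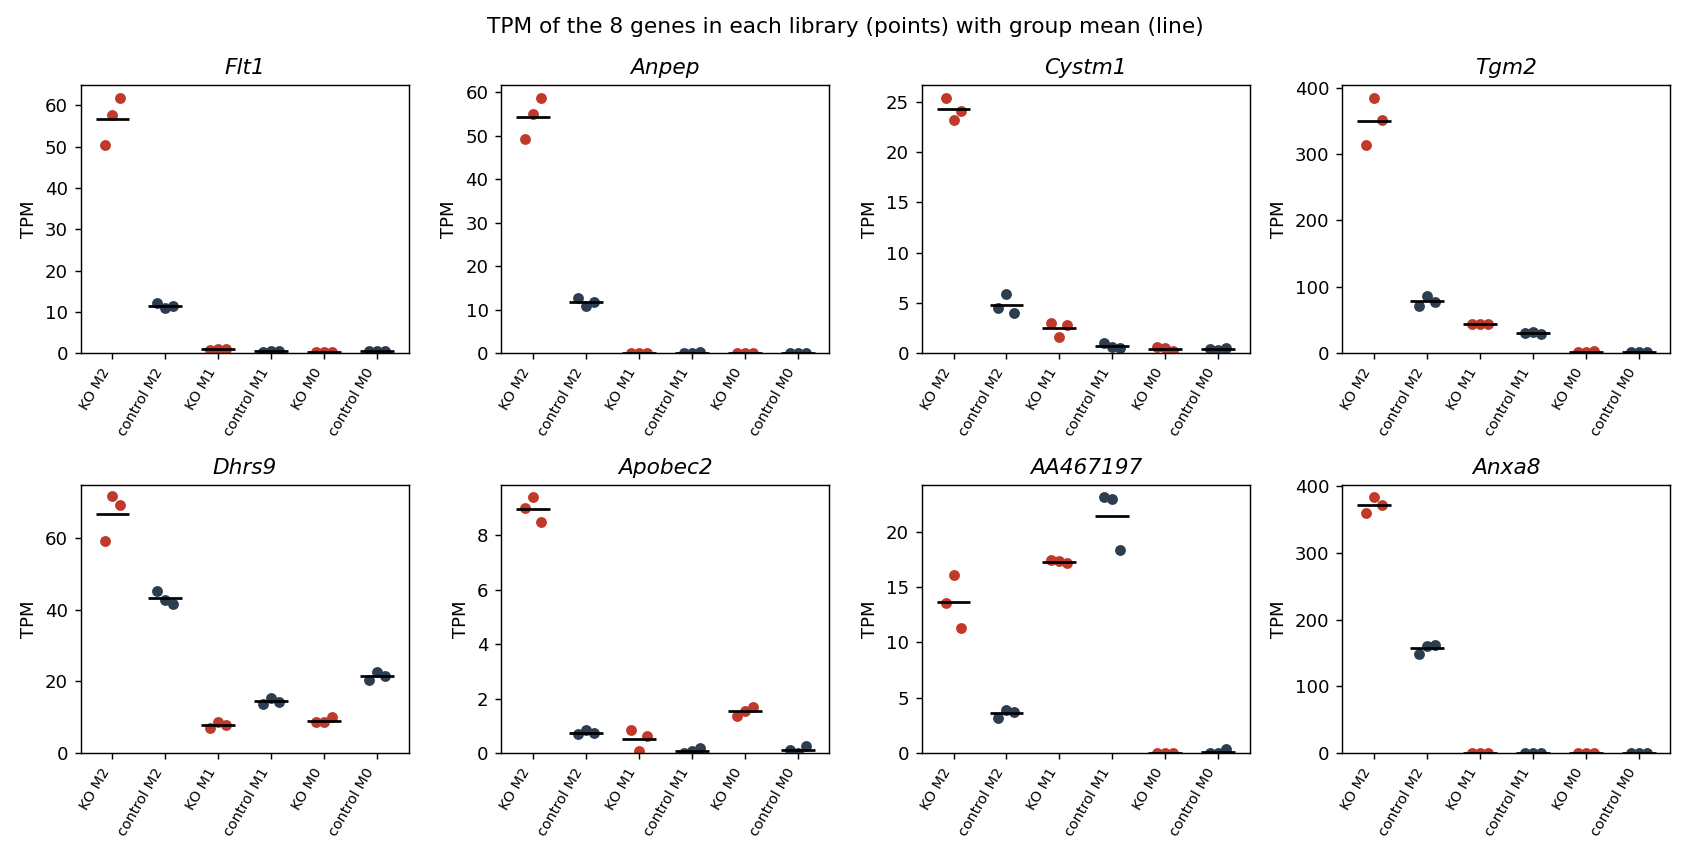
TPM of each of the 8 genes (vertical axis, linear from 0, scaled for each gene) in every library, with KO in red and control in dark blue; points are libraries and lines are group means. KO M2 libraries sit above all control M2 libraries for each gene, by the way the genes were chosen, while AA467197 is highest under M1 and Dhrs9 is lower in KO than in control libraries under M1 and M0.

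Flt1 stood at 50.4, 57.7 and 61.9 TPM in KO M2 libraries, against 12.3, 10.9 and 11.5 TPM in control M2 libraries. It was near 1 TPM in KO M1 libraries (0.89, 1.07 and 1.12 TPM) and below in control M1 libraries (0.38, 0.46 and 0.54 TPM). Without stimulation it had 0.38, 0.31 and 0.41 TPM in KO and 0.46, 0.48 and 0.56 TPM in control libraries. The receptor transcript was therefore seen at more than trace level under M2 in both lines, at means of 56.7 ± 5.82 TPM in KO and 11.5 ± 0.692 TPM in control cells, a ratio of 4.91. The ratio of M2 to M0 means was 155 in KO and 23.1 in control cells.

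Anpep had 49.2, 55.0 and 58.7 TPM in KO M2 libraries, against 12.6, 10.8 and 11.9 TPM in control M2 libraries, a ratio of means of 4.61. In the other 12 libraries it did not exceed 0.20 TPM, and it was listed at 0 in all 3 control M0 libraries. In level and in knockout ratio Anpep thus resembled Flt1, although the genes lie on different chromosomes (Flt1 on chromosome 5 at 147561604 to 147726438, Anpep on chromosome 7 at 79821803 to 79848210).

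Cystm1 had 25.4, 23.2 and 24.1 TPM in KO M2 libraries, against 4.55, 5.89 and 4.06 TPM in control M2 libraries, the highest ratio of means (5.02) among the genes above 1 TPM in every control M2 library. Under M1 it had 3.03, 1.62 and 2.83 TPM in KO and 1.04, 0.59 and 0.56 TPM in control libraries, which did not overlap. Without stimulation it had 0.59, 0.51 and 0.20 TPM in KO and 0.45, 0.38 and 0.54 TPM in control libraries, which did. The order of its levels was KO M2, control M2, KO M1, control M1 and then the M0 groups.

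Tgm2 and Anxa8 were the most abundant of the 8 under M2. Tgm2 had 314, 385 and 351 TPM in KO M2 libraries, against 70.7, 86.6 and 77.6 TPM in control M2 libraries, a ratio of means of 4.47. Unlike Flt1 and Anpep it was also well above its M0 level under M1, with 43.6, 44.6 and 43.9 TPM in KO and 30.3, 31.8 and 29.0 TPM in control libraries. Its M0 values were 2.01, 2.38 and 3.13 TPM in KO and 2.04, 1.72 and 1.65 TPM in control libraries, and these groups overlapped. On GENCODE vM21 (GRCm38) Tgm2 overlaps Rprd1b on the other strand, and whether reads were counted by strand is not given in the sources used here. Rprd1b itself had means of 23.4 TPM in both KO M2 and control M2 cells.

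Anxa8 had 360, 383 and 372 TPM in KO M2 libraries, against 148, 161 and 162 TPM in control M2 libraries, a ratio of means of 2.37. In the 12 M1 and M0 libraries it stayed at or below 0.42 TPM, and it was listed at 0 in all 3 control M0 libraries. Anxa8 was thus at trace level outside M2, and it ranked 2 of the 11548 tested genes by its M2-to-M0 change in control cells. The absolute gap between the lines was large, at 215 TPM, behind the gap of 271 TPM for Tgm2.

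Dhrs9 already had a sizeable level without stimulation, and outside M2 it was lower in KO than in control libraries. It had 59.1, 71.7 and 69.3 TPM in KO M2 libraries, against 45.2, 42.8 and 41.6 TPM in control M2 libraries, the smallest ratio of means among the 8 genes (1.54). In M0 libraries it had 8.55, 8.64 and 10.0 TPM in KO and 20.5, 22.6 and 21.4 TPM in control cells. The M2-to-M0 ratio of means was 7.35 in KO and 2.01 in control cells, and the KO mean was 1.54 times the control mean under M2 but 0.422 times without stimulation. Under M1 it had 7.12, 8.62 and 7.84 TPM in KO and 13.8, 15.4 and 14.2 TPM in control libraries.

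Apobec2 was the least abundant of the 8 under M2, with 8.99, 9.39 and 8.49 TPM in KO M2 libraries and 0.69, 0.83 and 0.72 TPM in control M2 libraries. The ratio of means was 12, the highest of the 8, on a control level below 1 TPM. It was also the only gene of the 8 whose KO M0 level lay above its control M2 level, at 1.35, 1.54 and 1.70 TPM in KO M0 libraries, against 0.10, 0 and 0.25 TPM in control M0 libraries. Under M1 it had 0.86, 0.09 and 0.64 TPM in KO and 0, 0.09 and 0.17 TPM in control libraries, which overlapped.

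AA467197 was the only gene of the 8 that was higher under M1 than under M2. It had 13.6, 16.1 and 11.3 TPM in KO M2 libraries, against 3.14, 3.93 and 3.74 TPM in control M2 libraries. Under M1 the order of the lines turned round, with 17.4, 17.3 and 17.1 TPM in KO and 23.1, 22.9 and 18.3 TPM in control libraries. It was listed at 0 in all 3 KO M0 libraries and in 2 of 3 control M0 libraries, the other holding 0.33 TPM. The gene spans the microRNA locus Mir147, which the table lists separately: Mir147 was at 0 in every M2 and M0 library and had means of 2.23 TPM in KO M1 and 4.70 TPM in control M1 cells. A table of poly(A) RNA does not measure a mature microRNA.

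Set side by side on the log2(TPM + 1) scale, the scale of all fold changes below, which understates those of low genes, the knockout-to-control difference under M2 was 2.51 for Apobec2, 2.20 for Flt1, 2.14 for Tgm2, 2.13 for Cystm1, 2.11 for Anpep, 1.66 for AA467197, 1.24 for Anxa8 and 0.61 for Dhrs9. The median of the 8 was 2.12, against -0.032 over all 11548 genes tested (those with at least 1 TPM in at least 3 libraries). Among all tested genes 12.7% were called higher and 18.3% lower in KO than in control M2 cells, but nothing is read from this for the 8 genes, since the same contrast chose them. Ranked by that difference, they held places 10 (Apobec2), 15, 16, 17 and 19 (Flt1, Tgm2, Cystm1 and Anpep), 36 (AA467197), 72 (Anxa8) and 241 (Dhrs9). The lowest KO M2 library exceeded the highest control M2 library by 10.2 times for Apobec2, 4.11 times for Flt1, 2.22 times for Anxa8 and 1.31 times for Dhrs9. KO M2 replicate 1 was the lowest KO M2 library for 5 of the 8 genes. Without it the differences were 2.28 for Flt1, 2.18 for Anpep, 2.09 for Cystm1, 2.22 for Tgm2, 0.70 for Dhrs9, 2.51 for Apobec2, 1.66 for AA467197 and 1.26 for Anxa8.

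The M2-to-M0 difference had a median of 4.77 in KO and 2.56 in control cells, against medians of -0.088 and -0.051 over all tested genes. In KO cells it ran between 8.29 for Anxa8 and 1.98 for Apobec2, and in control cells between 7.30 for Anxa8 and 0.65 for Apobec2. The gap between the lines in this response was widest for Flt1 (2.33) and narrowest for Anxa8 (0.98), where it turned to -0.08 with a pseudocount of 0.1 TPM because the M0 libraries were at or near 0. In control cells 28.4% of all tested genes were called higher and 37.0% lower under M2 than without stimulation. Of the 627 genes that were called and at least 2-fold higher under M2 in control cells, 248 were also called higher in KO than in control M2 cells and 131 lower. At least 2-fold higher in both comparisons were 39 genes, 0.338% of those tested, and 6 of them are among the 8 described here. Dhrs9 and Apobec2 are not: Dhrs9 was 0.97 log2 units higher under M2 in control cells, and Apobec2 0.65. Dhrs9 also stayed below 2-fold in the knockout difference under M2 (0.61).

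**Figure D2:**
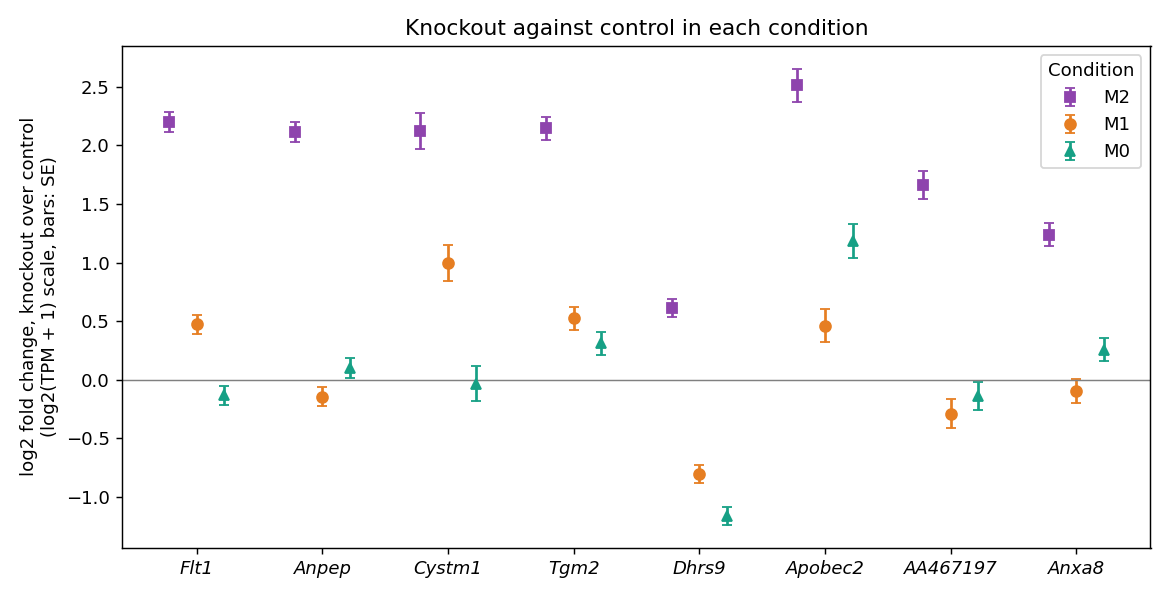
Log2 fold change of KO over control (vertical axis, log2(TPM + 1) scale, bars are SE of the limma fit) for each gene under M2, M1 and M0. The M2 values, which chose the genes, lie between 0.61 and 2.51, whereas the M1 values run between -0.80 and 1.0 and the M0 values between -1.16 and 1.18.

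Comparisons that rest on M0 and M1 means leave out the M2 difference that chose the genes. There limma tests of the 8 genes were made, with Benjamini-Hochberg adjustment over all tested genes. The genes were also taken for induction under M2, which is set against M0. M0 levels may therefore have entered the choice, and tests that use them are not free of it. Without stimulation, 3 of the 8 genes were called (2 higher and 1 lower in KO cells), where 19.2% of all tested genes were called. Apobec2 was higher in KO M0 cells by 1.18 ± 0.143 log2 units (SE, limma adjusted p = 4.42e-06), and Dhrs9 was lower, at a difference of -1.16 ± 0.0765 (adjusted p = 7.99e-10). Apobec2 reached 1 TPM in KO M2 and KO M0 libraries only. It thus passed the filter through KO libraries alone, which limits its p-values here and below. Tgm2 was higher by 0.31 ± 0.0982 (adjusted p = 0.0322), a call that was lost without control M0 replicate 2 or 3 or without KO M0 replicate 2 or 3 (adjusted p = 0.100, 0.122, 0.0577 and 0.172) and in the fit of the compared groups alone (0.110). Flt1 (-0.13), Cystm1 (-0.03) and AA467197 (-0.14) were not called. Flt1 passed the filter only with its M2 libraries, since outside M2 it reached 1 TPM in 2 KO M1 libraries alone. Its M0 libraries were at 0.56 TPM or less. Anpep and Anxa8, which entered the tested set only through their M2 libraries, were at 0.42 TPM or less here, and their differences (0.10 and 0.26, neither called) are not read. The median of the 8 was 0.03, against 0.005 for all tested genes.

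Under M1, 5 of the 8 genes were called (4 higher and 1 lower in KO cells), a share of the kind seen among all tested genes, of which 50.3% were called. Cystm1 was higher in KO M1 cells by 1.0 ± 0.153 log2 units, Tgm2 by 0.52 ± 0.0982 and Flt1 by 0.47 ± 0.0836 (SE, limma adjusted p = 2.31e-05, 2.45e-04 and 9.77e-05). Mean levels were 2.49 TPM in KO M1 and 0.73 TPM in control M1 cells for Cystm1, 44.0 TPM in KO M1 and 30.35 TPM in control M1 cells for Tgm2, and 1.03 TPM in KO M1 and 0.46 TPM in control M1 cells for Flt1. Flt1 was thus near or below the filter level of 1 TPM, which it passed only with its M2 libraries. Outside M2, Cystm1 reached 1 TPM in 3 KO M1 libraries and 1 control M1 library, which limits its calls here and below. Apobec2 was higher by 0.46 ± 0.143 (adjusted p = 0.0114), a call lost without control M1 replicate 1 or without KO M1 replicate 1 or 3 (adjusted p = 0.0501, 0.0921 and 0.0536) and in the fit of the compared groups alone (0.0594). Dhrs9 was lower, at -0.80 ± 0.0765 (adjusted p = 4.57e-08). AA467197 lay at -0.29 ± 0.121 (adjusted p = 0.0545) and was called without control M1 replicate 3, control M0 replicate 3 or KO M2 replicate 2 or 3 (adjusted p = 0.0175, 0.0294, 0.0393 and 0.0371), in the fit of the compared groups alone (0.0141), with only the 12 M0 and M1 libraries (0.0440) and with a filter of 5 TPM (0.0482). Anpep (-0.15) and Anxa8 (-0.10), again at trace level and not called, are not read. Fibroblast marker sums were 0.72 to 3.63 TPM in KO M1 and 0.29 to 0.48 TPM in control M1 libraries, the highest being KO M1 replicate 3. Without that library the differences were 0.92 for Cystm1, 0.52 for Tgm2, 0.44 for Flt1 and -0.80 for Dhrs9 (adjusted p = 2.53e-04, 0.00121, 8.33e-04 and 5.54e-07). Tgm2, Apobec2 and Dhrs9 were thus called under both M1 and M0, each in the same direction, and Dhrs9 with the sign opposite to its M2 difference.

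The M1 response itself separated the genes. TPM of the median gene were lower under M1 than without stimulation (-0.428 log2 units in KO and -0.381 in control cells), so changes below are read against that shift, and 90.3% of all tested genes were called in KO and 89.1% in control cells. AA467197 rose by 4.19 ± 0.121 in KO and 4.34 ± 0.121 in control cells, and Tgm2 by 3.69 ± 0.0982 in KO and 3.48 ± 0.0982 in control cells (SE, limma adjusted p at most 9.67e-17 in each). In KO cells 6 of the 8 genes were called: Cystm1 (1.27 ± 0.153) and Flt1 (0.57 ± 0.0836) also rose, and Apobec2 fell, at -0.76 ± 0.143 (adjusted p = 1.92e-07, 2.49e-06 and 5.40e-05). The filter limits given above for Cystm1, Flt1 and Apobec2 hold for their calls here as well. Dhrs9 was lower by the TPM as deposited (-0.19, adjusted p = 0.0289) and higher with TMM scaling (0.30, adjusted p = 7.46e-04), so no direction is given for it. In control cells 5 of the 8 passed the threshold. Anpep and Anxa8 were among them, but at 0.24 TPM or less, having entered the tested set only through their M2 libraries, and they are not read, which leaves 3. Beside AA467197 and Tgm2 this was Dhrs9 (-0.54, adjusted p = 1.42e-06), which was not called with TMM scaling (-0.07, adjusted p = 0.335). Cystm1 was not called as deposited (0.24, adjusted p = 0.148) but was with TMM scaling (0.43, adjusted p = 0.0181) and with median-ratio factors (0.42, adjusted p = 0.0206).

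The difference between the lines in the M1 response was tested as an interaction. It was called for 4 of the 8 genes, against 36.0% of all tested genes. The response was stronger in KO cells for Cystm1 (1.03 ± 0.217 log2 units) and Flt1 (0.61 ± 0.118), and for Dhrs9 it was shifted up by 0.36 ± 0.108 (SE, limma adjusted p = 0.00105, 5.05e-04 and 0.0142). For Apobec2 it was shifted down, at -0.72 ± 0.203 (adjusted p = 0.00882), a call that was not kept with TMM scaling (-0.54, adjusted p = 0.0746). Tgm2 (0.21) and AA467197 (-0.15) were not called, and the trace-level genes Anpep (-0.25) and Anxa8 (-0.35), also not called, are not read. The interaction calls of Cystm1, Flt1 and Apobec2 carry the filter limits given above.

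Each of the 8 genes passed the low-value filter, but by different libraries. Tgm2 and Dhrs9 reached 1 TPM in all 18 libraries, AA467197 in 12, Cystm1 in 10 and Flt1 in 8. Anpep and Anxa8 did so in the 6 M2 libraries only, and Apobec2 in the 3 KO M2 and the 3 KO M0 libraries. Among themselves, over the 18 libraries, Flt1, Anpep and Anxa8 ran closest (Pearson r of 0.994 for Flt1 with Anpep, 0.984 for Anpep with Anxa8 and 0.970 for Flt1 with Anxa8), and AA467197 stood apart (0.117 with Dhrs9 to 0.782 with Tgm2). These are descriptions over libraries that share 6 group means.

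**Figure D3:**
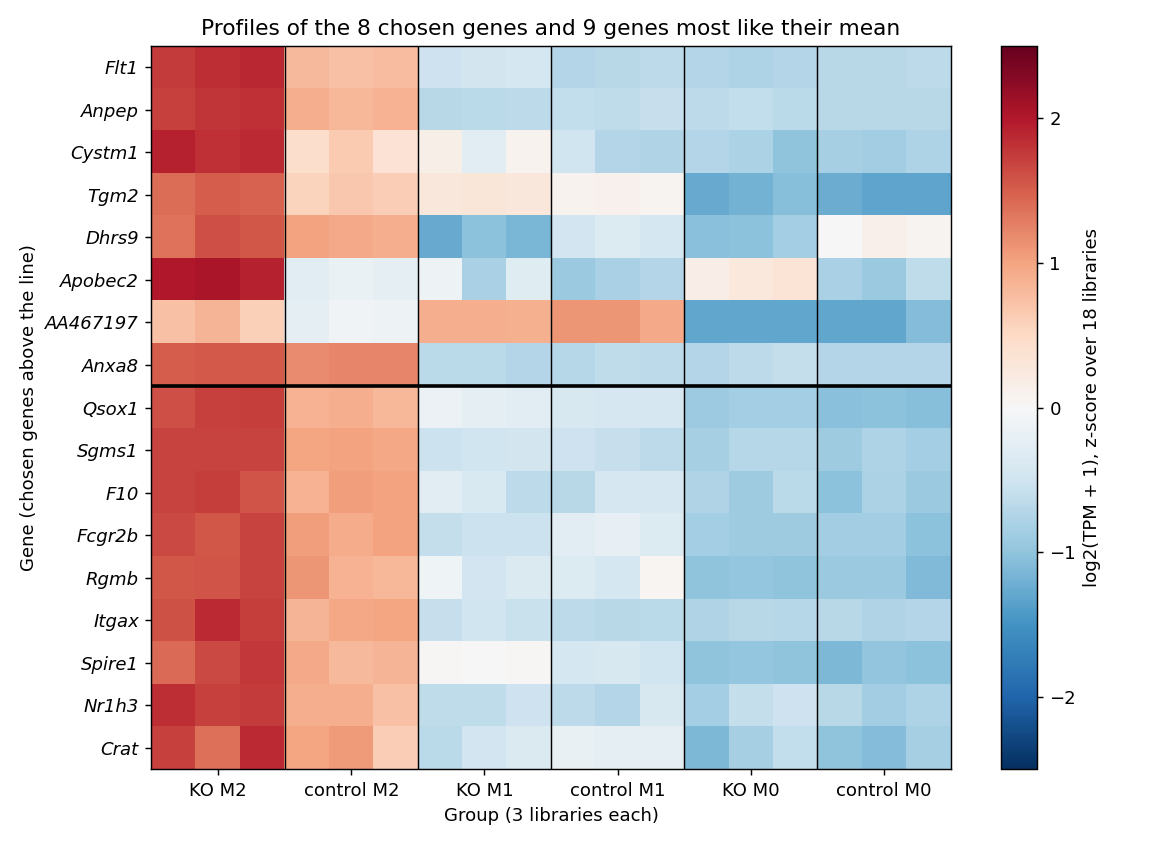
Levels as log2(TPM + 1), centred and scaled over the 18 libraries (z-score, red high and blue low), for the 8 genes above the line and 9 of the genes with the most similar profiles below it; columns are the 3 libraries of each group. The KO M2 columns are the darkest red in all rows but that of AA467197, whose highest columns are those of control M1.

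Genes outside the 8 with a profile most like their mean, by Pearson r over the 18 libraries, included Qsox1 (0.990), Sgms1 (0.980), F10 (0.979), Fcgr2b (0.977), Rgmb (0.976), Itgax (0.975), Spire1 (0.975), Nr1h3 (0.974) and Crat (0.973). Qsox1, a sulfhydryl oxidase of the secretory pathway, had means of 364 ± 16.4 TPM in KO M2 and 194 ± 6.58 TPM in control M2 cells. F10, which encodes coagulation factor X, had 12.5 TPM in KO M2 and 6.04 TPM in control M2 cells. Itgax, the integrin CD11c, had 11.1, 15.2 and 13.2 TPM in KO M2 libraries and 4.50, 5.30 and 5.44 TPM in control M2 libraries, and did not exceed 0.32 TPM elsewhere. Nr1h3, the oxysterol receptor LXR-alpha, had 20.9 TPM in KO M2 and 10.9 TPM in control M2 cells, and Fcgr2b, the inhibitory Fc receptor, 500.1 TPM in KO M2 and 349 TPM in control M2 cells. Since these genes were picked for likeness, their M2 difference is likewise a description.

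Of the 39 genes at least 2-fold higher in both comparisons, the 8 non-members with the widest knockout difference under M2 were Pcdh7 (4.51), Gm5424 (2.57), Tmem26 (2.53), H2-Ab1 (2.53), H2-Ea-ps (2.26), Asb11 (2.05), Cd36 (2.00) and H2-Aa (1.83). Of these 8 genes 5 (Pcdh7, Gm5424, Tmem26, H2-Ab1 and Cd36) were called higher in KO cells under M1 and under M0 as well, and of the 8 genes described here 2 (Tgm2 and Apobec2), where 3.65% of all tested genes were called higher in both. The call of Tgm2 under M0 and that of Apobec2 under M1 were lost without single libraries, as given above, and the difference between these counts was not tested. Apobec2 also passed the low-value filter through KO M2 and KO M0 libraries only, and KO M0 is part of this count. The count of 2 is therefore not read against the share of all tested genes. Pcdh7, a protocadherin, was higher in KO cells by 4.10 under M1 and by 3.39 under M0 (limma adjusted p = 1.85e-19 and 3.29e-18), and Tmem26 by 2.73 and 1.62 (adjusted p = 1.34e-15 and 1.09e-11). The MHC class II chain gene H2-Aa was called in neither (0.05 under M1 and 0.29 under M0, adjusted p = 0.700 and 0.0604), like AA467197. Cd36, a scavenger receptor for lipids, was higher by 0.68 under M1 and by 0.85 under M0 (adjusted p = 7.54e-08 and 1.17e-08).

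Relatives of the 8 genes were measured as far as they were expressed. Their counts stand beside 12.7% of all tested genes called higher and 18.3% lower in KO than in control M2 cells. For Flt1, 6 of 9 VEGF ligand and receptor genes could be tested, and 1 was called higher and 1 lower in KO than in control M2 cells: the co-receptor Nrp2 (0.15, limma adjusted p = 0.0188) and the ligand Vegfb (-0.23, adjusted p = 0.0208). The ligand genes Vegfa (-0.09) and Pgf (0.13) and the co-receptor Nrp1 (0.13) were not called, and the receptors Kdr and Flt4 had means of 0.0133 TPM or less in both M2 groups. Of the transglutaminases, Tgm1 (0.29, adjusted p = 0.0787) and Tgm4 (0.01) could be tested and were not called. Among 9 tested annexins 2 were called higher, Anxa2 by 0.54 and Anxa7 by 0.15 (adjusted p = 1.67e-10 and 3.35e-04). Anxa2, with 2395 TPM in KO M2 and 1642 TPM in control M2 cells, stayed far more abundant than Anxa8. Of 8 tested aminopeptidases related to Anpep, Npepps was called higher by 0.15 and 2010111I01Rik (Aopep) lower, at -0.23 (adjusted p = 0.0345 for Npepps). Apobec1 was lower (-0.16, adjusted p = 8.67e-04) and Apobec3 was not called (-0.03). Among 7 tested retinoid genes, the receptor gene Rara was higher by 0.70 and the dehydrogenase gene Rdh12 lower, at -0.30 (adjusted p = 2.02e-07 and 0.0315), while Rdh10 (0.06) and Dhrs3 (0.12) were not called. Of 2 tested relatives of AA467197, Ndufa4 was lower, at -0.18 (adjusted p = 7.47e-04), with 535 TPM in KO M2 and 605 TPM in control M2 cells. The other, Ndufa4l2, was not called, at means of 0.753 TPM in KO M2 and 1.18 TPM in control M2 cells.

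Genes known to respond to the cytokines in the M2 mixture were taken from lists written from general knowledge. Of 25 IL-4 and STAT6 response genes 17 could be tested, and 10 were called higher, 0 lower and 7 not called in KO against control M2 cells, with a median of 0.43 beside -0.032 for all tested genes. The shares over all tested genes in that comparison were 12.7% higher and 18.3% lower. In control cells 16 of these 17 were called higher under M2 than without stimulation, as were 28.4% of all tested genes. Besides Cd36 the widest differences among the called genes were those of the lectin receptor gene Clec7a (1.34), the transcription factor gene Batf3 (1.33) and Ch25h (0.77), which encodes cholesterol 25-hydroxylase (limma adjusted p = 6.52e-09, 5.74e-08 and 7.46e-07). Mrc1, the mannose receptor, was higher by 0.48 (adjusted p = 1.82e-04) at means of 2.76 TPM in KO M2 and 1.69 TPM in control M2 cells. Arg1, arginase, had 5191, 5097 and 4922 TPM in KO M2 libraries and 1831, 1941 and 1857 TPM in control M2 libraries. These did not overlap, but Arg1 was not called (1.43 ± 0.535, SE, adjusted p = 0.0599), and its M0 libraries varied between 0.59 and 6.58 TPM in KO cells. The variance of a gene is shared by all 6 groups in the fit, so spread outside M2 entered this SE. Within M2 the SD of Arg1 was 137 TPM in KO and 57.5 TPM in control cells. The direct STAT feedback genes Cish (-0.08) and Socs1 (0.08) were not called.

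Of 23 TGF-beta and SMAD target genes 14 could be tested, with 1 called higher, 3 lower and 10 not called, and a median of -0.08. These counts, and those of the IL-10 list below, stand beside 12.7% of all tested genes called higher and 18.3% lower. Tgfbi, which encodes a matrix protein, was higher by 0.90 (limma adjusted p = 6.21e-08). Among the lower genes were the receptor gene Tgfbr1 (-0.57) and the repressor gene Tgif1 (-0.24) (adjusted p = 1.50e-07 and 0.0036), and the feedback genes Smad7 (0.05) and Pmepa1 (-0.23, adjusted p = 0.0571) were not called. Of 10 tested IL-10 and STAT3 response genes 5 were called higher and 2 lower, the widest being Socs3, a feedback inhibitor, which was higher by 1.03 (adjusted p = 2.64e-11) at 372 TPM in KO M2 and 181 TPM in control M2 cells. Bcl3 and Etv3 were each higher by 0.28 (adjusted p = 0.00441 and 4.45e-04) and Saa3 was lower, at -0.34 (adjusted p = 0.00618). All 3 lists hold a mixture of responses, and none was compared with other genes by a set test.

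**Figure D4:**
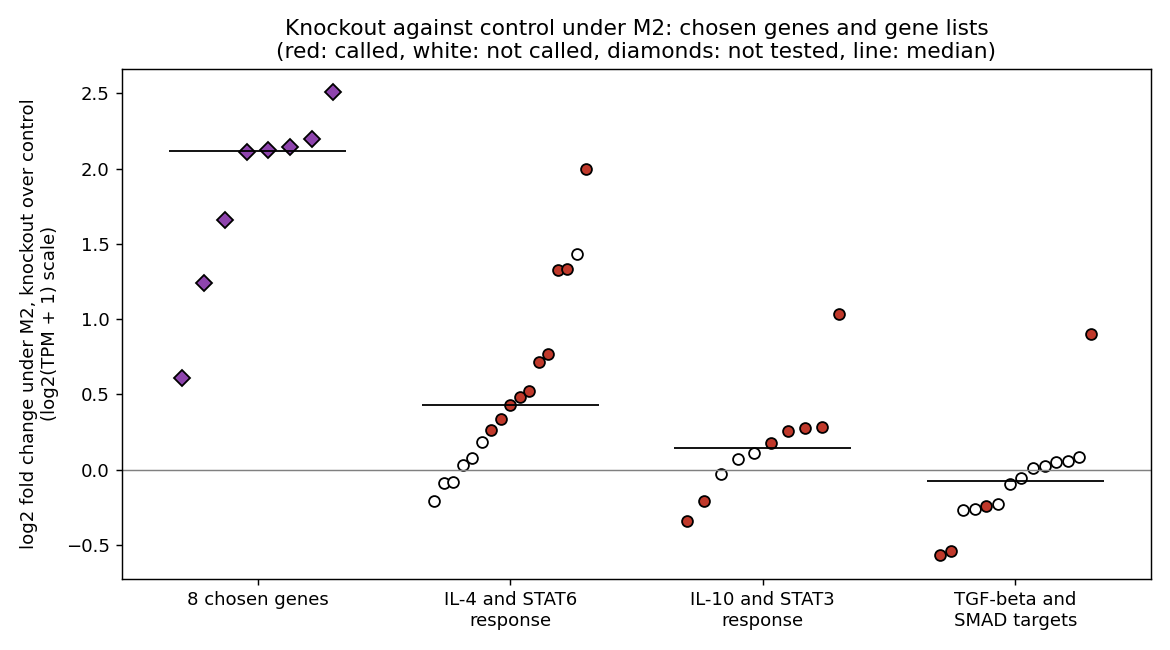
Log2 fold change of KO over control under M2 (vertical axis, log2(TPM + 1) scale) for the 8 chosen genes (diamonds, not tested) and for the tested genes of 3 cytokine response lists (red, called by limma at an adjusted p below 0.05; white, not called); each mark is a gene and lines are medians. The medians are 2.12 for the chosen genes, 0.43 for the IL-4 and STAT6 list and -0.08 for the TGF-beta and SMAD list.

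The 8 genes lie on 6 chromosomes, with Tgm2, Dhrs9 and AA467197 on chromosome 2 at starts of 158116405, 69380462 and 122637887 (GRCm38.p6). Of the 16 nearest annotated neighbours, 1 on each side, 9 could be tested, and 2 were called in KO against control M2 cells. Over all tested genes 12.7% were called higher and 18.3% lower in that comparison. Spata5l1, 1409 bases from AA467197, was higher by 0.46 (limma adjusted p = 0.00104), at 18.6 TPM in KO M2 and 13.3 TPM in control M2 cells. Igip, 47146 bases from Cystm1, was higher by 0.60 (adjusted p = 0.00227), at 7.78 TPM in KO M2 and 4.81 TPM in control M2 cells, but unlike Cystm1 it was lower under M2 than under M0 in control cells (-0.45, adjusted p = 0.00701). Pfdn1, 700 bases from Cystm1 on its other side, was not called (0.11), nor were Pan3 (-0.05) and Pomp (-0.03) beside Flt1 or Oard1 (-0.13) beside Apobec2. Both neighbours of Dhrs9 and both of Anxa8 were at or near 0 in every group.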

How the data were processed

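Poly(A) RNA of 18 RAW264.7 libraries was sequenced after library preparation with the NEBNext Ultra II kit, per the labels' protocols. The authors deposited TPM per gene symbol with 2 decimals. Per the submitters' processing notes, Trim Galore was used, without a version, and mm10 was the build. Aligner, quantification tool, annotation and use of strand: not given in the sources used here. TPM are shares of a fixed total (999999 to 1000001 in these libraries), so genes that rise strongly push the others down, and depth is unknown. Because a 0 may be a failed estimate, values per library are given for groups that hold one.

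Tests used limma 3.58.1 (R 4.3.3) with a mean-variance trend and robust moderation on log2(TPM + 1), a mean for each of 6 groups, the 11548 genes with 3 or more libraries at 1 TPM or above, and calls at a two-sided Benjamini-Hochberg adjusted p below 0.05. The script was tested on simulated data. TPM tables do not allow count models. The members and lists were chosen with earlier results of these data known. Named genes are the 8 members and Kdm7a, the 10 genes most like their mean profile (some items that these rules name are not reported here), the 8 widest knockout differences among M2-induced genes, up to 4 called genes of each list with 6 standard markers, relatives and nearest neighbours; Rprd1b and Mir147 were also named because they overlap members, Mir147 after its values were seen. Of 190 list symbols 189 were matched, some by synonym. Alternatives were TMM and median-ratio scaling, no trend, other filters (none, 5 TPM), a pseudocount of 0.1 TPM, fewer groups, a replicate block and each library left out.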

Additional observations from a re-analysis of the deposited data

Results flagged for a closer look

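The knockout effect under M1 differed from that without stimulation for 4 of the 8 genes, by the interaction test in limma adjusted over all tested genes. Cystm1 was higher in KO cells under M1 and not called under M0, and the effect differed by 1.03 log2 units (adjusted p = 0.00105). Outside M2 it reached 1 TPM in 3 KO M1 libraries and 1 control M1 library only, and KO M1 is part of this test. Its M0 libraries were at 0.59 TPM or less. Flt1 differed by 0.61 (adjusted p = 5.05e-04), with all 3 KO M1 libraries above all control M1 libraries and all 3 KO M0 libraries below all control M0 libraries. Its M0 and control M1 libraries were at 0.56 TPM or less, and it passed the low-value filter only with its M2 libraries. Dhrs9 differed by 0.36 (adjusted p = 0.0142), being lower in KO cells in both conditions and less so under M1. Apobec2 differed by -0.72 (adjusted p = 0.00882), being higher in KO cells in both conditions and less so under M1, and this call was not kept with either scaling or a pseudocount of 0.1 TPM. It passed the low-value filter through KO M2 and KO M0 libraries only, and KO M0 is part of this test. Over all tested genes 36.0% passed the same test.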

How the results depend on the processing

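Of 40 tested values of the 8 genes under 27 alternatives each, 1013 of 1080 kept their direction and side of the threshold, 36 lost the call, 19 gained it and 12 changed sign. All 208 alternative values of the knockout difference under M2 stayed positive (0.56 to 3.42), and its median ran between 2.07 and 2.18. With a pseudocount of 0.1 TPM, where low M0 values weigh more, the M2-to-M0 median moved to 7.006 in KO cells and to 4.391 in control cells, and with median-ratio factors it moved to 2.455 in control cells. The number of the 8 genes called in the M1 response of control cells was 3 with only the compared groups and 3 with only the 12 M0 and M1 libraries, an alternative chosen after seeing the data, and 3 to 5 without single libraries. Signs changed for Dhrs9 in the M1 response of KO cells (0.3016 with TMM and 0.2953 with median-ratio factors), for Flt1 and Apobec2 in that of control cells (Flt1 0.1229 and 0.1148, Apobec2 0.006944 and 0.004281, in the same order of scalings), for AA467197 in the genotype difference of the M1 response (0.4002) and for Anxa8 in that of the M2 response (-0.07699), both with a pseudocount of 0.1 TPM. Without single libraries, Cystm1 in KO against control M0 cells ran between -0.1124 and 0.09057, and in the M1 response of control cells Flt1 ran between -0.07905 and 7.9e-05 and Apobec2 between -0.1128 and 0.04819. The cause was not tested. Deviations of libraries with the same replicate number correlated weakly (-0.138 to 0.122), so the main fit did not pair them. Same-number correlations lay above the others throughout in the M2 response of control cells (0.053 to 0.116) and the M1 response of KO cells (0.074 to 0.089). In the remaining comparisons they did not. Such weak values from 3 libraries per group cannot show whether the numbers pair the libraries. With the replicate block 3, 5, 6 and 5 of the 8 genes were called in KO against control M0, KO against control M1, and the M1 response of KO and of control cells, and 4 in the genotype difference of the M1 response, as without it, and the M2 median of 2.12 was the same. Of the 41 tested genes of the 3 cytokine lists, 21 were called in KO against control M2 cells, and 18 to 23 under the alternatives. Over all tested genes 12.7% were called higher and 18.3% lower in that comparison. Unknown depth sets the limit for genes below 1 TPM.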
